A study of Homo sapiens with 8 samples.

Results

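The genes described here are 57 genes of mitosis, the spindle and the kinetochore, taken from the expression table by symbol, from a list of known regulators and structural proteins of cell division. All 57 were found among the 61906 genes listed, and all 57 were abundant enough (a mean over the 8 libraries of 1 TPM or more) to be among the 14478 genes tested. They were measured by RNAseq of poly(A)-captured RNA from U251, an established human glioblastoma cell line of genotype WT according to the labels, grown as a culture whose cell cycle was not said to be synchronised. The comparison was between 4 libraries from cells given DMSO (vehicle) and 4 from cells given 100 nM LLY-283, an inhibitor of the arginine methyltransferase PRMT5, each after 24 h. The question put to these genes was how far the transcripts that cells make for division differed after a day of LLY-283. TPM is a transcript's share of its library per unit of transcript length, so levels can be set side by side between genes on this scale.

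In a dividing cell most of these transcripts rise in G2 and fall again after mitosis. The cyclin-dependent kinase CDK1 with cyclins A and B drives entry into mitosis, CDC25 phosphatases switch it on, and the kinases WEE1 and PKMYT1 hold it off. The kinetochore is the protein plate on the centromere that grips spindle microtubules, and the spindle checkpoint holds the cell until all kinetochores are attached, after which the anaphase-promoting complex with CDC20 releases the sister chromatids. Transcription of the group is known to depend on FOXM1, on MYBL2 and on the MuvB complex, which binds a promoter element called the cell cycle genes homology region (CHR), and the factor NF-Y binds CCAAT boxes in many of the same promoters.

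As promoters of mitotic genes are known to share these short elements, the stretches just upstream of the transcription start are printed for 5 members that fell and 3 that did not pass the test, so that the elements can be compared between both kinds. They are RefSeq sequences of GRCh38.p14, written 5′ to 3′ along the gene's own strand, and none overlaps an exon of any annotated gene. The stretches end at the RefSeq start, except that of SPC24, which ends 25 bases before it, and that of CCNB1, which ends 15 bases before it. Capitals mark each match to the CHR core TTTGAA and to the CCAAT box CCAAT, searched on both strands (as TTCAAA and ATTGG on the other strand). The members that fell are NCAPG (chr4:17810814-17810978, plus strand), SPC24 (chr19:11155808-11155972, minus strand), CDK1 (chr10:60778166-60778330, plus strand), TOP2A (chr17:40417897-40418061, minus strand) and KIF20B (chr10:89701425-89701589, plus strand). Those not called are CCNB1 (chr5:69166970-69167134, plus strand), ESPL1 (chr12:53268134-53268298, plus strand) and CDC20 (chr1:43358816-43358980, plus strand).
NCAPG: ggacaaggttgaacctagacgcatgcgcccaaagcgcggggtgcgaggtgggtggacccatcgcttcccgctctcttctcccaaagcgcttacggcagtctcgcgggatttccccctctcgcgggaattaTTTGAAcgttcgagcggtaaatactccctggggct
SPC24: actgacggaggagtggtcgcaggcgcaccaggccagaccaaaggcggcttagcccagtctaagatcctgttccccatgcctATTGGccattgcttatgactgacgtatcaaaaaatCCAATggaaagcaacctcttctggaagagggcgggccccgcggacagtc
CDK1: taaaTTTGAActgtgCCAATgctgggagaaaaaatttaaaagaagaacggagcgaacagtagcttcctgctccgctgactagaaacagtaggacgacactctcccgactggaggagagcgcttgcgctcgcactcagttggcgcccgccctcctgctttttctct
TOP2A: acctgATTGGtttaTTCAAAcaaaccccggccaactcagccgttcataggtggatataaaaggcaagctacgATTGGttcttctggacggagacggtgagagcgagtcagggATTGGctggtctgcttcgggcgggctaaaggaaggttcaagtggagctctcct
KIF20B: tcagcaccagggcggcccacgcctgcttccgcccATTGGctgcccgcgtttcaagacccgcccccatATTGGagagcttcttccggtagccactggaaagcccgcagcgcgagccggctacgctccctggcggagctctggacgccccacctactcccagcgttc
CCNB1: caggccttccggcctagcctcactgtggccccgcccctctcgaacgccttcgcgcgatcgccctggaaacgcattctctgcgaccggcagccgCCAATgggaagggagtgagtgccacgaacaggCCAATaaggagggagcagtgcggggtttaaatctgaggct
ESPL1: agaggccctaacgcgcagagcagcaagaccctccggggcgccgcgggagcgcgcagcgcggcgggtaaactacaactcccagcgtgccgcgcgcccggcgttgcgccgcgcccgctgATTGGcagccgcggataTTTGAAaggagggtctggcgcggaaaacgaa
CDC20: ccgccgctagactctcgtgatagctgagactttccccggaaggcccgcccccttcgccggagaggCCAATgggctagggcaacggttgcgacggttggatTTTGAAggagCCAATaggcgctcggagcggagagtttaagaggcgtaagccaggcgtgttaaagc

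RefSeq windows of 300 bases, from 250 before to 50 after the start, were found for 48 of the 57 members, with 60 windows in all because some genes have several starts. WEE1, PKMYT1, FOXM1, BUB3, TTK, UBE2C, BIRC5, AURKA and TPX2 had no window. The CHR core was present in 38 of the 60 windows (63.3%), against 15.2% of all 35116 windows and 10.6% of the 15174 windows of tested genes. A list of 40 DNA replication genes, used here as a comparison from the same cell cycle, had the CHR core in 1 of 48 windows (2.08%). CCAAT was present in 42 of 60 windows of members (70%), in 34.6% of all windows and in 26 of 48 windows of the replication genes (54.2%). Both elements together were present in 30 of 60 windows of members and in 5.90% of all windows. Counted by gene, the CHR core was present in 12 of 17 members that fell and in 22 of 29 that did not pass the test, and CCAAT in 15 of 17 and in 21 of 29. The printed stretches show the same spread, since CCNB1 and SPC24 both have 2 CCAAT boxes and no CHR core there, while CDK1 and ESPL1 have 1 of each. A match is a run of letters and not a measured binding site, and its absence says only that the letters are not in the window.

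**Figure D1:**
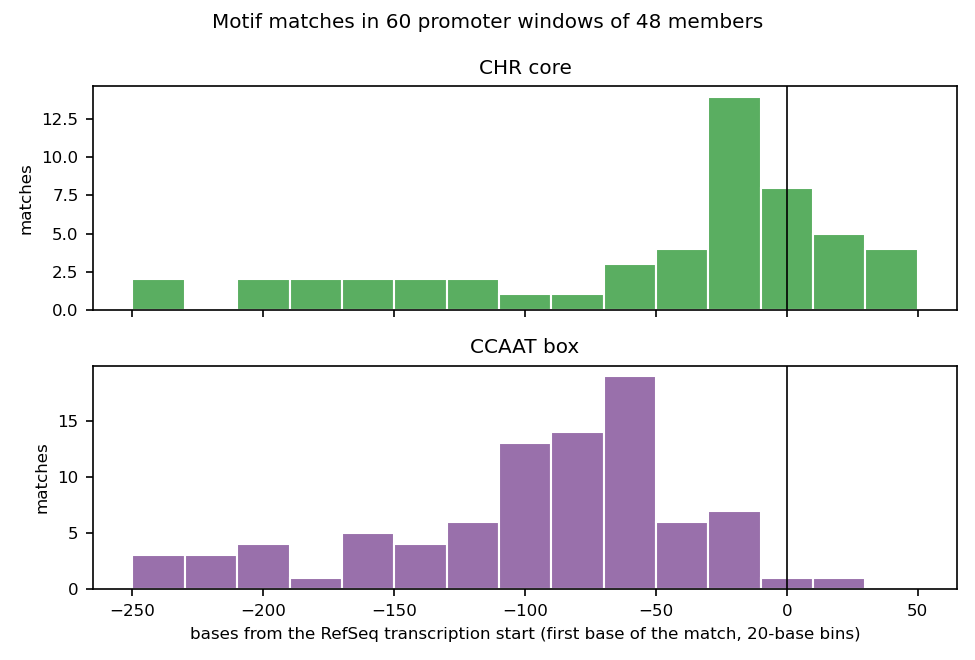
Matches to the CHR core (top) and to CCAAT (bottom) in 60 promoter windows of 48 members, by the distance in bases of the first base of the match from the RefSeq start (bins of 20 bases, y axis in matches, overlapping windows of a gene counted separately). The 52 CHR matches had a median position of -28, with 23 in the 50 bases before the start, and the 87 CCAAT matches a median of -87, with 46 between 50 and 110 bases before it.

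The files give TPM without counts, which leaves the read depth unknown and the values without a counting error. Markers of the glioma lineage were high, with VIM at a vehicle mean of 4301 TPM, CD44 at 1576, GFAP at 809.5, NES at 482.8, SOX9 at 120.5, SOX2 at 103 and EGFR at 23.7, while S100B was at 4.34. They also moved with treatment, as limma called GFAP (-0.25), SOX2 (-0.27) and NES (-0.17) decreased and CD44 (0.11) increased. These calls held with median-of-ratios scaling. With quantile normalization CD44 lost its call (0.08, limma adjusted p = 0.189) and VIM gained one as decreased (-0.10, adjusted p = 0.00633). The part of these glioma markers in the results was not tested. Markers of immune cells summed to at most 2.93 TPM, of epithelium to at most 0.93 and of endothelium to at most 0.59 in any library, with PTPRC, CD3E, EPCAM and PECAM1 at or near 0. Of the 4 fibroblast markers, COL1A1 and PDGFRA carried nearly all of a sum of 138 to 151 TPM in vehicle and of 158 to 175 with LLY-283, while DCN and LUM were at or near 0. COL1A1 was higher in every treated library (53.9 and 74.9 TPM on average, log2 difference 0.47, limma adjusted p = 0.000355). PDGFRA was not called (0.06, adjusted p = 0.333), but was called increased with median-of-ratios scaling (0.12, adjusted p = 0.0355). Whether cells of that kind had a part in any result was not tested. The mitochondrial share of TPM was between 10.2% and 10.7% in vehicle, 10.6% to 11.0% in LLY-283 replicates 1 to 3 and 7.19% in LLY-283 replicate 4.

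With LLY-283, 18 of the 57 members were called decreased and 3 were called increased by limma at an adjusted p-value under 0.05, and 36 were not called. The members that fell by most were SPC24 of the NDC80 complex, the phosphatase CDC25C, the condensin subunit NCAPG and the kinesins KIF20A and KIF20B, at 72.7% to 79.6% of their vehicle means, and those that rose were the checkpoint kinase TTK, the cohesion protector CDCA5 and the condensin subunit NCAPD2. Over all genes tested 17.6% were called decreased and 8.61% increased, against 31.6% and 5.26% of the members. Among the 6598 genes within the members' range of mean TPM, from 18.0 to 308, these shares were 18.0% and 13.9%. Differences were small in every member. None passed 1.5-fold in either direction, although 28 lower and 3 higher had an unadjusted p-value under 0.05, because the largest decrease was 0.46 on the log2 scale, while 3.48% of all genes tested passed that fold downward and 0.394% upward. Without LLY-283 replicate 4, the library of low mitochondrial share, 23 members were called decreased and 4 increased, where all genes had 18.5% and 10.3%. Without the mitochondrial genes the members' counts were 22 and 3, where all genes had 18.1% and 7.86%. In bulk RNA, fewer cells in G2 and mitosis and less transcript per such cell cannot be told apart.

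The summed TPM of the 57 members was 5808, 5760, 5841 and 5847 in the vehicle libraries and 5397, 5516, 5592 and 5529 in the LLY-283 libraries. All 4 LLY-283 sums lay below all 4 vehicle sums, with a mean of 94.7% of vehicle. The members' median difference was -0.06 on the log2 scale and that of all genes tested was -0.05, while the genes within the members' range of mean TPM had a median of -0.01. Relative to each gene's vehicle mean, the median member in the LLY-283 libraries stood at -0.10, -0.07, -0.05 and -0.07, beside -0.04, -0.04, -0.03 and -0.06 for the median of all genes. Groups did not overlap for 18 members that were lower and 3 that were higher, or 31.6% and 5.26%, against 19.6% and 9.63% of all genes tested.

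Counts of both directions depended on how the libraries were scaled. With median-of-ratios scaling, which sets the typical gene of each library equal, 13 members were called decreased and 7 increased, where all genes had 11.8% and 15%. The 13 were all among the 18, and those that lost the call were CCNA2, FOXM1, KIFC1, DLGAP5 and MKI67. The increased members were then TTK, CDCA5 and NCAPD2 together with ESPL1, ANLN, SMC2 and NCAPH. The median member was at 0.00 with this scaling and the median of all genes at 0.01, and no called member changed sign. With quantile normalization, which gives every library the same distribution of values, 22 members were called decreased and 2 increased, where all genes had 12.6% and 12.9%, and the median was -0.06 for the members and 0.01 for all genes. CDC20, UBE2C, PTTG1 and AURKB then gained a call as decreased, and NCAPD2 lost its call.

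**Figure D2:**
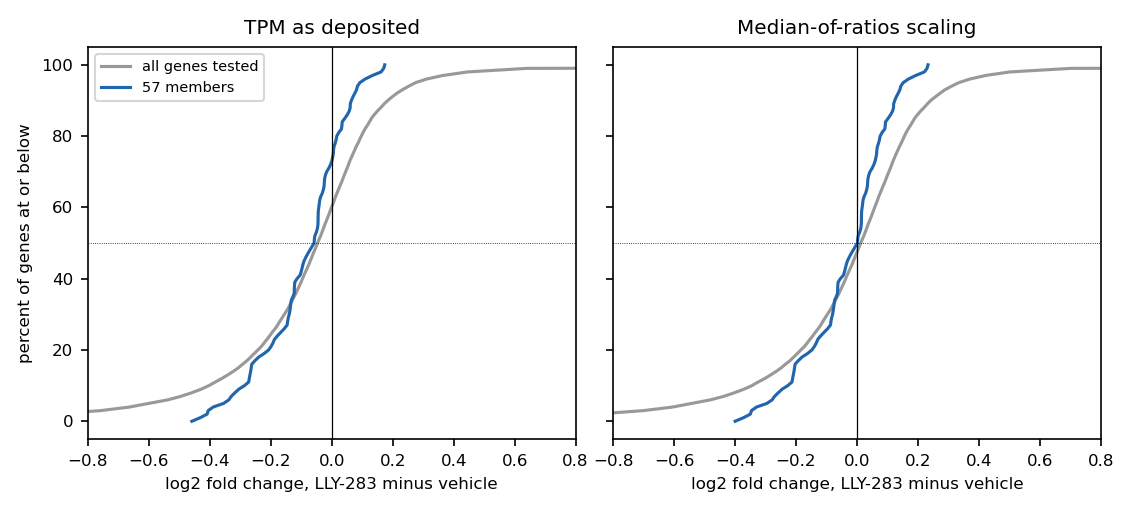
Cumulative share of genes (y axis, percent at or below) by log2 fold change of LLY-283 minus vehicle (x axis), for the 57 members and for all genes tested, with TPM as deposited (left) and with median-of-ratios scaling (right). At the 50th percentile the members were at -0.06 and all genes at -0.05 on the left, and at 0.00 and 0.01 on the right. At the 5th percentile members were at -0.36 and all genes at -0.60 on the left.

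**Figure D3:**
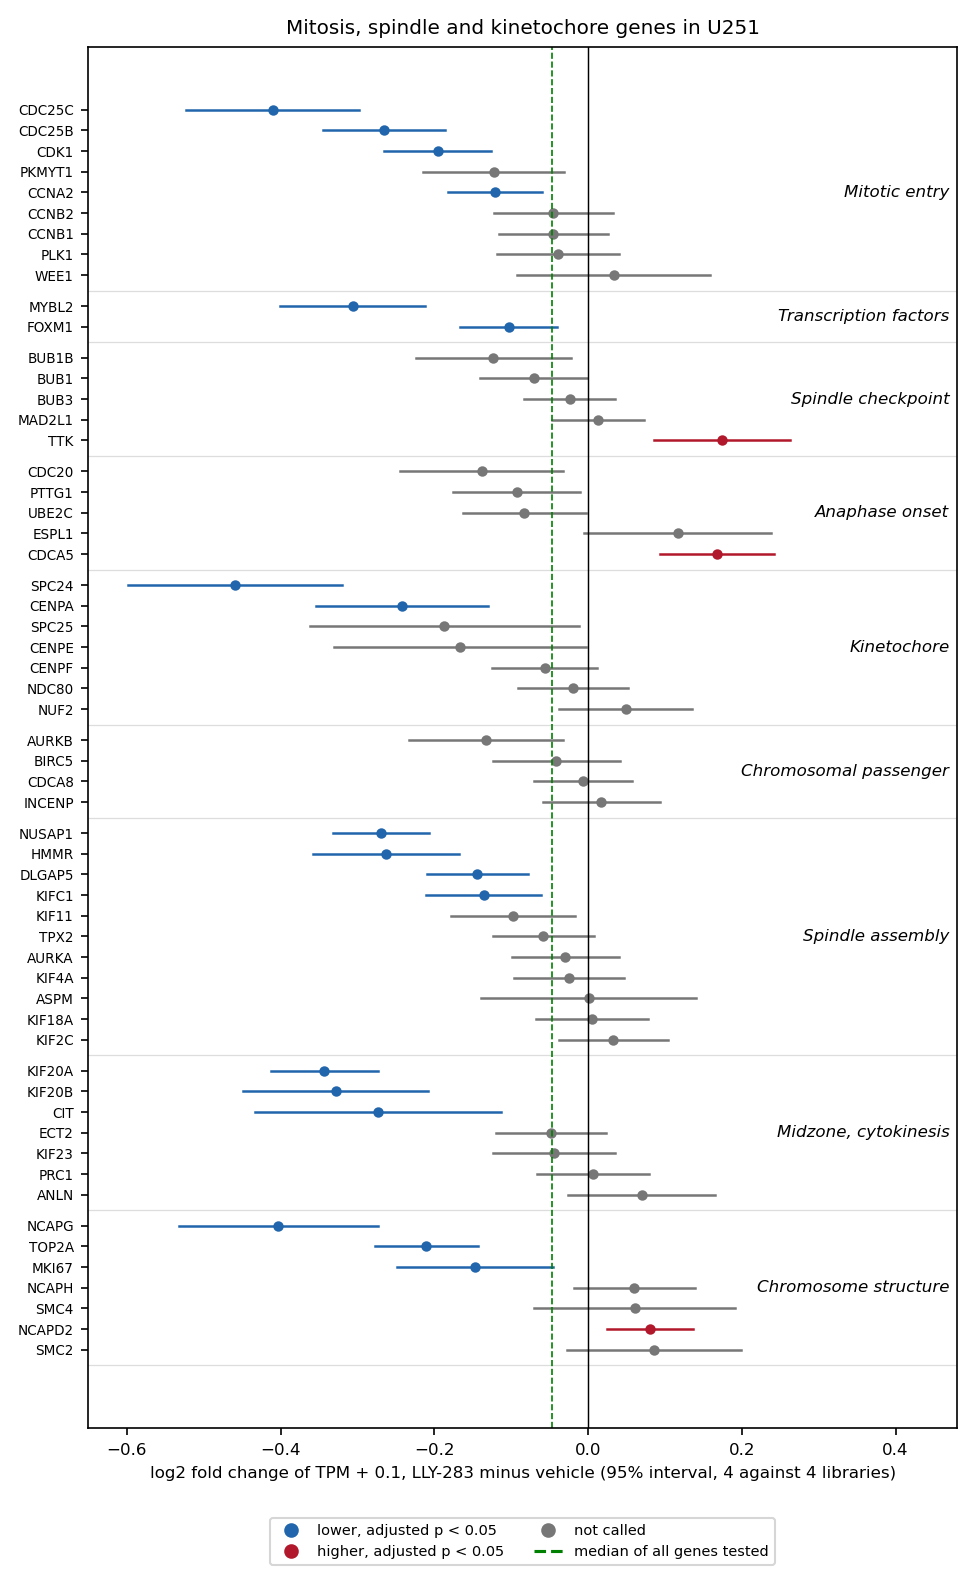
Log2 fold change of TPM + 0.1, LLY-283 minus vehicle, with 95% intervals (limma, 4 against 4 libraries), for each of the 57 members by role. Blue points are the 18 members called decreased, red points the 3 called increased and grey points the 36 not called, and the dashed line is the median of all genes tested. Points lie between -0.46 (SPC24) and 0.17 (TTK).

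Differences given for single genes are log2 fold changes of TPM + 0.1, LLY-283 minus vehicle, with limma p-values adjusted over all genes tested, and the values of vehicle replicates 1 to 4 stand before those of LLY-283 replicates 1 to 4. Over all genes tested 17.6% were called decreased and 8.61% increased, and 11.8% and 15% with median-of-ratios scaling. These shares stand for comparison with the counts of every role below. Roles hold only 2 to 11 genes each, and no difference between roles was tested. Among 9 genes of mitotic entry, the kinase CDK1, its cyclin CCNA2 and both CDC25 phosphatases fell, while the B-type cyclins and PLK1 did not pass the test. CDK1 was at 93.6, 89.2, 95.5 and 95.6 TPM in the vehicle libraries and at 82.6, 82.5, 81.2 and 80.0 with LLY-283. The groups did not overlap, and the difference was -0.20 (SE 0.031, limma adjusted p = 0.00195), a fall of 12.7%. CCNB1, the main cyclin partner of CDK1 at the G2/M boundary, was at 283, 289, 290.2 and 292 TPM and at 269, 284, 273 and 294. Its highest LLY-283 library was above all vehicle libraries, and the difference of -0.04 (95% interval -0.12 to 0.03, adjusted p = 0.329) turned to 0.01 with median-of-ratios scaling. CCNB2 differed by -0.05 (adjusted p = 0.371). CCNA2, which acts with CDK2 in S phase and with CDK1 in G2, was at 59.1, 58.4, 59.7 and 59.2 TPM in vehicle and at 54.0, 53.9, 55.7 and 53.7 with LLY-283, every treated library being lower. Its difference of -0.12 (SE 0.027, adjusted p = 0.011) lost the call with median-of-ratios scaling, at -0.06 (adjusted p = 0.133).

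CDC25C, which removes the inhibitory phosphates from CDK1, had the smallest p-value of these 9 genes. Its gene lies at chr5:138285269-138338355 on the minus strand (GRCh38). It was at 20.4, 21.5, 19.0 and 21.1 TPM in vehicle and at 14.8, 15.2, 15.5 and 16.1 with LLY-283, a difference of -0.41 (SE 0.050, adjusted p = 0.000536). CDC25B, which starts CDK1 activation at the centrosome, was at 84.0, 87.6, 85.4 and 89.1 TPM and at 68.7, 75.3, 71.9 and 72.0, a difference of -0.27 (SE 0.035, adjusted p = 0.000807). For both phosphatases all treated libraries were below all vehicle libraries. WEE1, the nuclear kinase that opposes them, was at 56.5, 60.5, 63.7 and 56.1 TPM and at 61.1, 63.4, 62.7 and 55.2, with overlapping groups and a difference of 0.03 (95% interval -0.09 to 0.16, adjusted p = 0.697). PKMYT1, the membrane-bound kinase with the same substrate, was at 40.8, 41.9, 39.6 and 41.6 TPM and at 35.9, 36.4, 39.7 and 38.5. All but 1 treated library of PKMYT1 were below vehicle, and its difference of -0.12 had an adjusted p of 0.0528, which passed 0.05 in 5 of 19 alternative settings, among them without LLY-283 replicate 3 (0.0344) or replicate 4 (0.047). PLK1, the kinase of centrosome maturation and mitotic exit, was at 117, 124, 118 and 124 TPM and at 114, 115, 117 and 124, with overlapping groups, a difference of -0.04 (95% interval -0.12 to 0.04, adjusted p = 0.45) and a value of 0.02 with median-of-ratios scaling.

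Both transcription factors of the list fell. MYBL2, the partner of the MuvB complex in S and G2 phase, was at 66.5, 66.1, 65.4 and 67.4 TPM in vehicle and at 50.7, 53.2, 52.8 and 58.1 with LLY-283. The treated libraries were spread over a wider range than vehicle but all lay below it, and the difference was -0.31 (SE 0.042, adjusted p = 0.000921). FOXM1, the forkhead factor of G2 transcription, was at 129, 127, 132 and 134 TPM and at 119, 123, 119.8 and 124, again without overlap. Its difference was smaller, at -0.10 (SE 0.028, adjusted p = 0.0247), and was lost without LLY-283 replicate 1 (0.0667) or 3 (0.0661), without vehicle replicate 3 (0.0627) or 4 (0.0759) and with median-of-ratios scaling (0.347). FOXM1 overlaps RHNO1 on the opposite strand, which was also called decreased (-0.20, adjusted p = 0.00388), and the strand setting of the counting is not stated.

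The 5 spindle checkpoint genes did not fall by the test, with 2 of them lower at an unadjusted p under 0.05, and 1 rose. TTK, the kinase that starts checkpoint signalling at unattached kinetochores, was at 29.2, 27.6, 29.5 and 28.1 TPM in vehicle and at 33.2, 31.4, 33.3 and 31.2 with LLY-283. Every treated library was above every vehicle library, with a difference of 0.17 (SE 0.039, adjusted p = 0.0113), or 0.23 with median-of-ratios scaling. BUB1 was lower in all treated libraries, from a mean of 76.7 to 73.0 TPM, but the difference of -0.07 was not called (adjusted p = 0.124). The pseudokinase BUB1B, which inhibits CDC20 as part of the checkpoint complex, differed by -0.12 (adjusted p = 0.0714). BUB3 and MAD2L1 differed by -0.02 (95% interval -0.08 to 0.03) and 0.01 (95% interval -0.05 to 0.07).

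Of 5 genes of anaphase onset, CDCA5 rose and none fell by the test, although 3 (CDC20, UBE2C and PTTG1) were lower at an unadjusted p under 0.05 and were called decreased with quantile normalization. CDCA5 (sororin), which protects cohesin on sister chromatids until anaphase, was at 48.6, 52.5, 50.3 and 50.8 TPM in vehicle and at 55.3, 57.6, 56.6 and 57.5 with LLY-283. Groups were apart, and the difference was 0.17 (SE 0.033, adjusted p = 0.00586). CDC20, the activator of the anaphase-promoting complex and the most abundant member in vehicle, was at 308, 313, 298 and 312 TPM and at 257, 281, 277 and 305. Treated replicate 4 lay within the vehicle range and the other treated libraries below it. The difference of -0.14 had an adjusted p of 0.0568, and of 0.00491 at -0.18 without LLY-283 replicate 4, and was called in 4 of 19 alternative settings. The ubiquitin-conjugating enzyme UBE2C (-0.08, adjusted p = 0.119) and securin, PTTG1 (-0.09, adjusted p = 0.0948), were not called, but both were with quantile normalization (-0.10 for each, adjusted p = 0.0148 and 0.0283). PTTG1 has a near-identical copy in PTTG2 that could share its reads. Separase, ESPL1, differed by 0.12 (adjusted p = 0.145) and was called increased with median-of-ratios scaling (0.18, adjusted p = 0.0276).

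At the kinetochore, SPC24 and CENPA fell among 7 genes, and the partners of SPC24 in its complex did not pass the test. SPC24 lies at chr19:11131520-11155807 on the minus strand (GRCh38) and had the largest fold of all 57 members. It was at 30.4, 27.3, 26.6 and 26.7 TPM in vehicle and at 21.5, 20.7, 18.3 and 20.1 with LLY-283. All treated libraries were far below vehicle, with a difference of -0.46 (SE 0.062, adjusted p = 0.000892), a fall of 27.3%. CENPA, the histone H3 variant that marks the centromere, was at 54.0, 46.0, 50.1 and 47.3 TPM and at 40.4, 41.9, 42.5 and 41.8, lower in every treated library, with a difference of -0.24 (SE 0.050, adjusted p = 0.00721). NDC80, which binds the microtubule, was at 57.2, 57.2, 56.8 and 57.2 TPM and at 55.8, 58.9, 56.4 and 54.3. Its groups overlapped and its difference was -0.02 (95% interval -0.09 to 0.05). NUF2, the coiled-coil partner of NDC80, differed by 0.05 (95% interval -0.04 to 0.14), and SPC25, the direct partner of SPC24, by -0.19 (95% interval -0.36 to -0.01, adjusted p = 0.109). The kinesin CENPE and the large coiled-coil protein CENPF differed by -0.17 (adjusted p = 0.124) and -0.06 (adjusted p = 0.202).

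None of the 4 genes of the chromosomal passenger complex, which corrects wrong attachments, was called by limma, and 1 was lower at an unadjusted p under 0.05. That one was its kinase AURKB, at 132, 135, 131 and 134 TPM in vehicle and at 116, 121, 133 and 116 with LLY-283. Replicate 3 of the treated libraries lay within the vehicle range and the other treated libraries below it, with a difference of -0.13 (adjusted p = 0.054) and of -0.18 (adjusted p = 0.00541) without that replicate, and it was also called with quantile normalization (0.0409) and in genes of at least 5 TPM (0.0456). BIRC5 (survivin), which guides the complex to the centromere, was at 152, 156, 147 and 159 TPM and at 147, 144, 147 and 157, with overlapping groups and a difference of -0.04 (95% interval -0.12 to 0.04, adjusted p = 0.441) that was 0.02 with median-of-ratios scaling. INCENP and CDCA8 differed by 0.02 (95% interval -0.06 to 0.09) and -0.01 (95% interval -0.07 to 0.06).

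**Figure D4:**
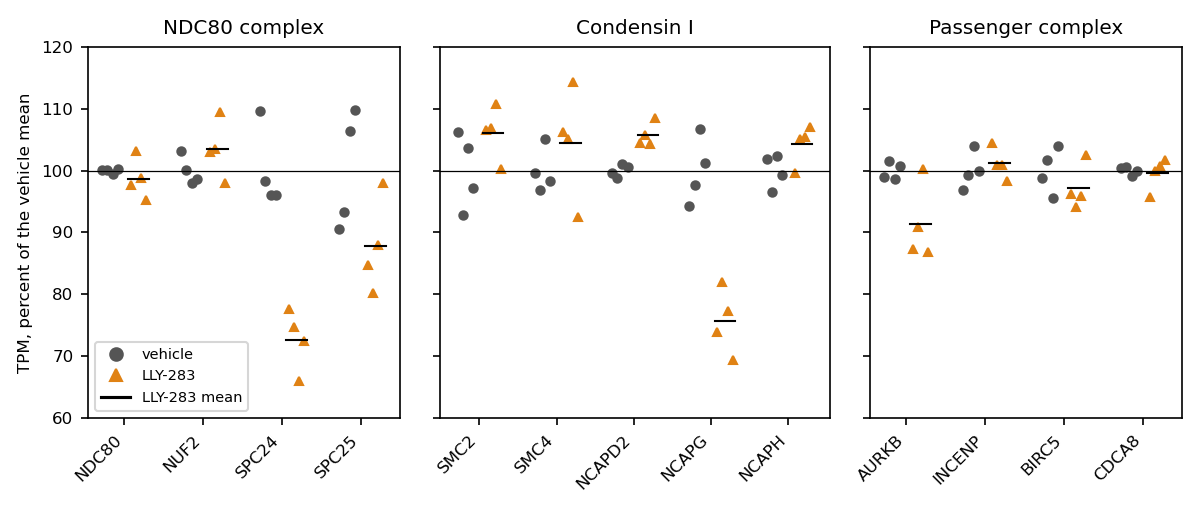
TPM as a percent of each gene's vehicle mean (y axis) for the subunits of the NDC80 complex, condensin I and the chromosomal passenger complex, with vehicle libraries as circles, LLY-283 libraries as triangles and the LLY-283 mean as a bar. SPC24 at 72.7% and NCAPG at 75.6% of vehicle are the lowest subunits of their complexes, beside NDC80 at 98.7% and SMC2 at 106%.

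Spindle assembly was represented by 11 genes, of which 4 fell and none rose by limma, none being higher at an unadjusted p under 0.05. NUSAP1, which bundles microtubules near chromatin, was at 250.3, 234, 243 and 244 TPM in vehicle and at 200.1, 201, 206 and 198 with LLY-283. The groups were well apart, with a difference of -0.27 (SE 0.028, adjusted p = 0.000259). HMMR, a spindle pole protein also known as a hyaluronan receptor, was at 43.4, 39.1, 42.1 and 40.9 TPM and at 34.2, 35.0, 35.7 and 33.0, without overlap, a difference of -0.26 (SE 0.042, adjusted p = 0.0021). The minus-end kinesin KIFC1, which clusters extra centrosomes, was at 80.1, 79.4, 80.0 and 77.8 TPM and at 68.8, 75.6, 72.4 and 72.1, and DLGAP5, a stabiliser of kinetochore fibres, was at 78.8, 74.3, 76.2 and 77.7 TPM and at 69.1, 69.0, 68.6 and 71.0. These differences were -0.14 (adjusted p = 0.0159) and -0.14 (adjusted p = 0.0069), without overlap, and both lost the call with median-of-ratios scaling (adjusted p = 0.155 and 0.101). AURKA, the spindle pole kinase, was at 105, 105, 99.9 and 103 TPM and at 97.8, 99.5, 103 and 104. Its groups overlapped, and its difference of -0.03 (95% interval -0.10 to 0.04, adjusted p = 0.52) was 0.03 with median-of-ratios scaling. Its activator TPX2 differed by -0.06 and the motor KIF11, which pushes the poles apart, by -0.10 (adjusted p = 0.176 and 0.0725). KIF2C, KIF18A, KIF4A and the pole protein ASPM lay between -0.03 and 0.03, and KIF4A has a near-identical copy in KIF4B.

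NUSAP1 overlaps OIP5 on the opposite strand, which fell by 0.66 on the log2 scale (adjusted p = 5.22e-05). As OIP5 was at a vehicle mean of 40.7 TPM and NUSAP1 at 243, and since the counting's strand setting is not stated, reads from any exons they share could not be assigned with certainty. OIP5-AS1 overlaps NUSAP1 on the same strand, was at a vehicle mean of 64.7 TPM and differed by -0.39 (adjusted p = 0.00193), and there the strand would not separate the reads. In all, 18 of the 57 members and 9 of the 21 called overlap a protein-coding gene. Among them CCNA2 overlaps EXOSC9, which rose by 0.35 (adjusted p = 0.000316), and CDC25C overlaps FAM53C, which fell by 0.17 (adjusted p = 0.0221). KIF20A overlaps BRD8 on the opposite strand, which was at a vehicle mean of 75.4 TPM and fell by 0.19 (adjusted p = 0.0179), and CDC23 on the opposite strand, which was at 34.9 TPM and was not called (0.12, adjusted p = 0.087). PKMYT1, which was not called, overlaps PAQR4 on the opposite strand. PAQR4 was at a mean of 32.7 TPM in vehicle and 21.2 with LLY-283, and differed by -0.63 (adjusted p = 1.93e-05). How many reads such genes share was not measured.

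Of 7 genes of the midzone and cytokinesis, KIF20A, KIF20B and CIT fell, while the bundling protein PRC1 and the exchange factor ECT2 were not called. KIF20A, the kinesin that carries the passenger complex to the midzone, lies at chr5:138178719-138187723 on the plus strand (GRCh38) and had the smallest p-value of all members. It was at 97.5, 96.9, 95.3 and 98.2 TPM in vehicle and at 75.2, 73.5, 78.5 and 78.6 with LLY-283. There was a gap between the groups far wider than the spread within them, and the difference was -0.34 (SE 0.031, adjusted p = 0.000124), a fall of 21.2%. KIF20B, its paralog in late cytokinesis, was at 24.9, 23.1, 25.8 and 24.7 TPM and at 20.2, 19.8, 20.4 and 18.0, a difference of -0.33 (SE 0.053, adjusted p = 0.00227). The citron kinase CIT, which organises the midbody, was at 29.7, 30.3, 31.0 and 34.2 TPM and at 29.2, 26.6, 24.0 and 23.9. Both genes were lower in every treated library, and for CIT the difference of -0.27 (SE 0.071, adjusted p = 0.0205) was not called without vehicle replicate 4 (0.0566) or without LLY-283 replicate 3 (0.054). PRC1, which stood next to CDC20 in abundance, was at a mean of 307 TPM in vehicle and 308 with LLY-283 (0.01, 95% interval -0.07 to 0.08). KIF23 and ECT2, which work together at the midzone, differed by -0.04 and -0.05, and the scaffold ANLN differed by 0.07 (adjusted p = 0.262), called increased at 0.13 with median-of-ratios scaling (adjusted p = 0.0417).

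Among 7 genes of chromosome structure, NCAPG, TOP2A and MKI67 fell and NCAPD2 rose. NCAPG, a HEAT-repeat subunit of condensin I, was at 39.7, 41.1, 44.9 and 42.6 TPM in vehicle and at 31.1, 34.5, 32.5 and 29.2 with LLY-283. The treated libraries were all below vehicle, with a difference of -0.40 (SE 0.058, adjusted p = 0.00116). NCAPD2, the other HEAT-repeat subunit, was at 129, 128, 131 and 129.9 TPM and at 135, 137, 135 and 140.2, higher in every treated library. Its difference of 0.08 (SE 0.025) was the smallest of all called, and its adjusted p of 0.0403 passed 0.05 in only 6 of 19 alternative settings, being lost on leaving out any 1 of vehicle replicates 1 to 4 or LLY-283 replicates 1 to 3. TOP2A, the topoisomerase that untangles sister chromatids, was at 213, 206, 220.1 and 206 TPM and at 182, 185, 186 and 178, without overlap, a difference of -0.21 (SE 0.030, adjusted p = 0.00114). MKI67, the proliferation marker that coats mitotic chromosomes, was at 151, 163, 169 and 164.7 TPM and at 136, 148, 152 and 149.6. The lowest vehicle library of MKI67 lay just below the highest treated one, and its difference of -0.15 (SE 0.045, adjusted p = 0.0394) was lost without vehicle replicate 2 (0.0849), 3 (0.101) or 4 (0.0956) and without LLY-283 replicate 1 (0.0851) or 2 (0.07). SMC2, SMC4 and NCAPH differed by 0.09, 0.06 and 0.06 (adjusted p = 0.241, 0.479 and 0.235).

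**Figure D5:**
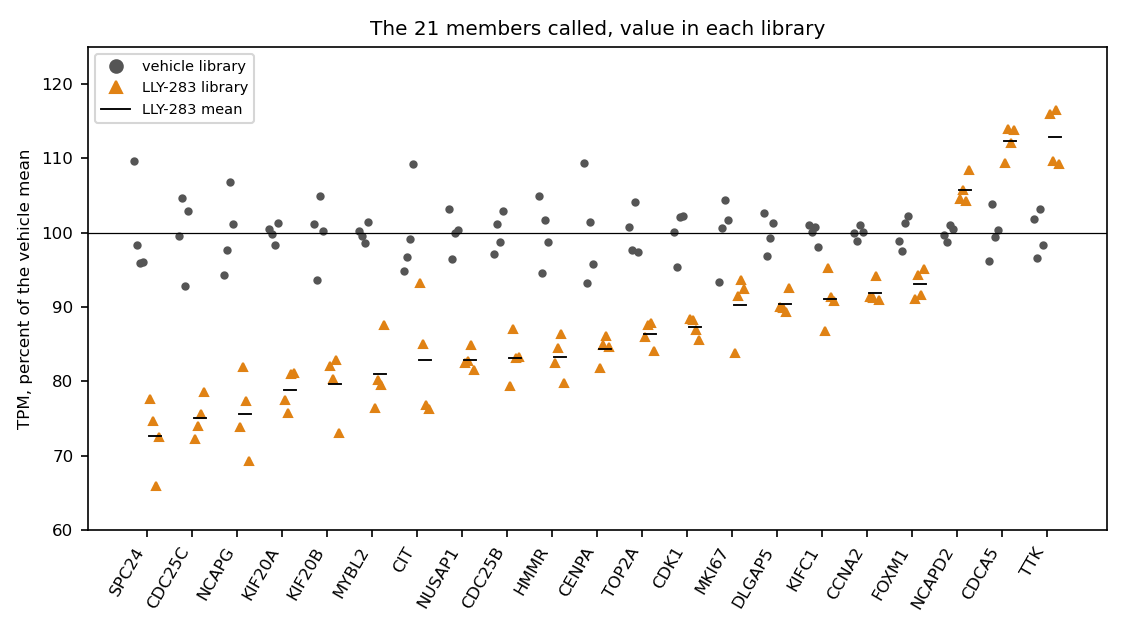
TPM in each library as a percent of the gene's vehicle mean (y axis), for the 18 members called decreased and the 3 called increased, in order of fold change. Circles are the 4 vehicle libraries, triangles the 4 LLY-283 libraries and short bars the LLY-283 means, which run from 72.7% for SPC24 to 113% for TTK.

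Ratios between partners that work in a shared complex or on a shared substrate are given as a description, with no test, because the pairs were chosen after the fold changes had been seen and restate them within each library. The log2 ratio of 2 TPM values of a library is not touched by the scaling of that library. In condensin I, the log2 ratio of NCAPD2 to NCAPG was 1.62 ± 0.0662 in vehicle and 2.10 ± 0.119 with LLY-283 (SD, n = 4), without overlap. The ratios of SMC2 and SMC4 to NCAPG differed by 0.49 and 0.46, and that of NCAPG to NCAPH by -0.46, each without overlap. The 6 ratios among the condensin subunits other than NCAPG differed by -0.02 to 0.03.

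In the NDC80 complex, the log2 ratio of NDC80 to SPC24 was 1.04 ± 0.0894 in vehicle and 1.48 ± 0.107 with LLY-283 (SD, n = 4), and that of NUF2 to SPC24 differed by 0.51, both without overlap. For SPC24 against SPC25, which form a dimer, the difference was -0.27 with overlapping groups. The ratio of CDK1 differed by -0.15 against CCNB1 and by -0.15 against CCNB2, without overlap, and by -0.07 against CCNA2. CDC25C differed by -0.44 against WEE1 and by -0.29 against PKMYT1, and CDC25B by -0.30 against WEE1 and by -0.14 against PKMYT1, the last with overlapping groups. In the chromosomal passenger complex the groups overlapped for all 6 pairs.

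Members called decreased were also compared with the rest in features of their transcripts, as a description. In the transcript that the annotation marks as canonical, the 18 had a median of 14.5 exons, 2949 bases and 46.8% GC. The 36 not called had 17, 3531 and 43.8%, and the 3 increased had 22, 2966 and 51.6%. Median vehicle levels were 71.5 TPM in members that fell and 98.0 in those not called. Removing the trend of fold change on GC content and transcript length gave 23 decreased and 2 increased members, where all genes had 20% and 9.66%.

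Of 142 other genes of the same pathway 141 were found and tested. Of these, 40 were called decreased (28.4%) and 12 increased (8.51%), with a median of -0.07. Over all genes tested the shares were 17.6% and 8.61%, the latter close to that of the pathway genes. With median-of-ratios scaling the pathway counts were 24 and 21, where all genes had 11.8% and 15%. The decreased and increased genes of each list with that scaling are given beside it as scaled counts. These all-gene shares stand for comparison with every list below. The 19 genes of the inner kinetochore, the proteins that sit on centromeric chromatin, had 8 decreased, none increased by limma (none at an unadjusted p under 0.05) and a median of -0.12, with scaled counts of 7 and 0. CENPI, which helps to load CENPA, was at 22.7, 18.8, 20.8 and 20.3 TPM in vehicle and at 12.0, 11.9, 12.4 and 11.5 with LLY-283, a difference of -0.78 (adjusted p = 5.46e-05). OIP5, of the Mis18 complex that licenses CENPA loading, was at 42.5, 39.6, 38.2 and 42.6 TPM and at 26.6, 24.2, 26.6 and 25.3, a difference of -0.66 (adjusted p = 5.22e-05). Both passed 1.5-fold, which no member did, and OIP5 is the gene that overlaps NUSAP1. Of 18 further outer kinetochore genes 7 fell and 2 rose (scaled counts 5 and 2), led by DSN1 of the MIS12 complex (-0.36, adjusted p = 0.00034) and SPDL1, which brings dynein to kinetochores (0.14, adjusted p = 0.00339).

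The 17 genes of the anaphase-promoting complex and its activator FZR1, inhibitor FBXO5 and enzyme UBE2S had 2 decreased and 2 increased (11.8% each). Their scaled counts were 1 and 4. Over all genes the shares were 17.6% and 8.61%, and 11.8% and 15% with median-of-ratios scaling. ANAPC16 was at 71.6, 71.1, 73.6 and 71.7 TPM in vehicle and at 55.4, 50.7, 50.1 and 53.5 with LLY-283, all treated libraries being lower (-0.46, adjusted p = 7.51e-05). The catalytic cullin ANAPC2 was at 39.6, 39.6, 38.8 and 41.03 TPM and at 50.5, 51.8, 50.6 and 42.5, all treated libraries being higher (0.29, adjusted p = 0.00721). Of 15 genes of cohesin and condensin II, 3 fell and 2 rose, with scaled counts of 1 and 6. Over all genes the balance also turned with that scaling, from 17.6% and 8.61% to 11.8% and 15%. NCAPG2 of condensin II was at -0.20 (adjusted p = 0.00206) and the acetyltransferase ESCO1 at 0.22 (adjusted p = 0.00682). The 15 genes of augmin and the gamma-tubulin ring, which start new microtubules, had 2 of each (scaled counts 2 and 3), with TUBG1 at -0.34 (adjusted p = 0.000302) and TUBGCP4 at 0.33 (adjusted p = 0.00314). Of 12 centrosome and centriole genes STIL, a centriole duplication factor, was the 1 gene called (-0.25, adjusted p = 0.00193), with scaled counts of 1 and 1. The 22 other spindle and cytokinesis genes had 7 decreased and 2 increased (scaled counts 2 and 3). Among them the PP2A inhibitor ENSA was at -0.25 (adjusted p = 0.000858) and the microtubule plus-end protein CLASP1 at 0.26 (adjusted p = 0.0115).

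Regulators of mitotic transcription, 23 genes that include E2F factors, the MuvB complex and NF-Y, had 10 decreased (43.5%) and 2 increased (8.70%). Their median was -0.13 and their scaled counts were 5 and 2. Over all genes the shares were 17.6% and 8.61%, and 11.8% and 15% with median-of-ratios scaling. CDKN1A (p21), the cyclin-dependent kinase inhibitor, was at 13.2, 13.6, 14.5 and 13.7 TPM in vehicle and at 8.19, 7.67, 8.21 and 9.02 with LLY-283. It was lower in every treated library, with a difference of -0.73 (adjusted p = 7.95e-05), past 1.5-fold. E2F1, the activator at the start of S phase, was at 35.4, 36.2, 36.4 and 35.3 TPM and at 27.6, 28.9, 27.7 and 28.1, a difference of -0.35 (adjusted p = 0.000139). The histone-binding MuvB subunit RBBP4 and the repressor-type factor E2F4 rose, by 0.17 and 0.16 (adjusted p = 0.00481 and 0.0113).

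The 40 DNA replication genes, which act in S phase before the members do, had 13 decreased and 2 increased, with a median of -0.08 and scaled counts of 9 and 4. These shares, 32.5% and 5%, stood close to the members' 31.6% and 5.26%, and the difference between the lists was not tested. Over all genes tested the shares were 17.6% and 8.61%, and 11.8% and 15% with median-of-ratios scaling. The replication genes of smallest p were GINS4 (-0.57, adjusted p = 0.000302) and, upward, the helicase subunit MCM3 (0.23, adjusted p = 0.00145).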

How the data were processed

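The labels call the 4 libraries per group biological replicates. According to the submitters' processing notes the reads were demultiplexed with bcl2fastq 2.20, trimmed with cutadapt 1.18, mapped to hg38 with STAR 2.7.0f, checked with Picard and quantified with RSEM 1.3.1, while the study's methods name other releases of STAR and RSEM. The values the authors deposited are TPM per gene and library, which keep no read depth, and mitochondrial transcripts take part of each library's fixed sum.

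From these, log2(TPM + 0.1) was compared between groups with limma 3.58.1 in R 4.3.3 (lmFit, eBayes with trend, no block) in the 14478 genes that averaged 1 TPM or more, with Benjamini-Hochberg adjustment over all genes tested. A call is an adjusted p-value under 0.05, and a second rule adds a change above 1.5-fold. The pseudocount of 0.1 slightly understates the fold of genes of low TPM. The scripts were tested on simulated data. The members and lists were chosen with earlier results of these data known. Per-library values are given for called members, for 13 regulators and markers of division picked by name (CCNB1, CDK1, PLK1, AURKA, AURKB, CDC20, TOP2A, MKI67, FOXM1, MYBL2, BIRC5, WEE1 and PKMYT1), for the member of smallest p in each role and, as values or differences, for the called gene of smallest p in each direction of each other list. NDC80, BUB1, CENPI, E2F1, E2F4 and the genes that overlap a member were named after their values were seen.

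Alternatives were pseudocounts of 0.5 and 1, no filter or a mean of at least 5 TPM, quantile and median-of-ratios scaling, eBayes without trend, removal of the GC and length trend, mitochondrial genes left out, a replicate block and each library left out. Gene positions are those of GENCODE release 44 (GRCh38), in which 14457 of the tested identifiers were found.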

Additional observations from a re-analysis of the deposited data

Results flagged for a closer look

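In groups of 4 libraries, the highest or lowest library stood far from the rest, by a gap over range above Dixon's 95% critical value, in 8 of 118 groups tested, where chance gives about 1 in 20. Among LLY-283 libraries, CCNA2 was highest in replicate 3 at 55.65 TPM (next 54.01), UBE2C in replicate 4 at 221.51 TPM (next 201.94) and PTTG1 in replicate 4 at 258.07 TPM (next 238.78). Replicate 4 of LLY-283 also had the mitochondrial share that stood apart, at 7.19% against 10.6% in the next library. Among vehicle libraries, NDC80 was lowest in replicate 3 at 56.79 TPM (next 57.17), CENPF lowest in replicate 1 at 115.26 TPM (next 120.32), KIF4A highest in replicate 4 at 61.68 TPM (next 59.57) and KIF23 highest in replicate 1 at 110.89 TPM (next 107.57). No cause was tested for any of these.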

How the results depend on the processing

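Of the 21 called members, 14 kept their call under all 19 alternatives and none changed sign. FOXM1 and MKI67 were also lost under eBayes without trend (adjusted p = 0.0536 and 0.0768), KIFC1 with the GC and length trend removed and a replicate block (0.0509), and MKI67 and NCAPD2 without the filter on low values (0.0859 and 0.0592). Median-of-ratios scaling moved more results than any other alternative. It gave 7 increased members in place of 3, 9 higher members without overlap in place of 3, 24 decreased and 21 increased pathway genes in place of 40 and 12, 4 increased replication genes in place of 2, a members' median of 0.00173 and a summed TPM of 0.988 times vehicle in place of 0.947. All genes moved likewise. Of 14479 genes 2165 were then increased and 2452 higher without overlap, in place of 1247 and 1394 of 14478. Decreased genes were 1714 in place of 2541. The same scaling also turned CCNB1 (0.0149), PLK1 (0.0206), AURKA (0.0303) and BIRC5 (0.0184) to small positive values. This scaling divides each library by a size factor, which was 1.01 to 1.04 in vehicle and 0.963 to 0.990 with LLY-283. It therefore shifts every gene upward by nearly the same amount, and the median of all genes went from -0.05 to 0.01. Why the size factors differed between the groups was not tested.

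Increased replication genes numbered 1 with the GC and length trend removed, with or without the block, and 4 with quantile normalization. All genes had 7.95% increased with that trend removed and the block, 9.66% without the block and 12.9% with quantile normalization. Leaving out each library in turn gave 15 to 23 decreased and 2 to 4 increased members, 3 to 5 higher members without overlap (5 without LLY-283 replicate 4), 30 to 40 decreased and 8 to 17 increased pathway genes, 1 to 3 increased replication genes (1 without LLY-283 replicate 3) and a summed TPM of 0.943 to 0.954 times vehicle. Over all genes, leaving out each library gave 13.1% to 18.5% decreased and 6.23% to 10.3% increased. Genes higher without overlap ran from 1570 of 14461 (without vehicle replicate 1) to 1993 of 14516 (without LLY-283 replicate 4). The highest member counts, 23 and 4, were those without LLY-283 replicate 4, where all genes had 18.5% and 10.3%. Within 150 bases before the start the CHR core was present in 40% of member windows, against 7.33% of all windows, and by gene in 7 of 17 members that fell and 16 of 29 not called. The replicate numbers did not pair the samples (same-number correlations -0.0851 to 0.0320, with 0 of 4 vehicle libraries closest to their own number). A replicate block gave 18 decreased and 2 increased members (31.6% and 3.51%), where all genes had 15.2% and 7.56%. It gave 1 increased replication gene, and CIT and NCAPD2 lost the call (adjusted p = 0.0551 and 0.0757). Read depth is unknown, so small differences in members of low TPM cannot be set against counting error.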
